A study of Mus musculus with 6 samples.

Results

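The genes described here are 41 genes of DNA replication and of the passage from G1 into S phase, taken by symbol from a table of 56448 genes measured in the mouse mammary tumour line 4T1, which grows in culture. All 41 had a row in the table, and all 41 passed the filter on low values (a mean over the libraries of at least 1 TPM, the length-corrected share of transcripts scaled to one total in every library). The series describes a lentivirus that stably lowers the microRNA miR-9, with a control, and holds messenger RNA libraries of cultured cells labelled LV2 (n = 3) and in9 (n = 3). Every library is of the 4T1 line with the genotype given only as LV2 or in9, cultured in medium with serum. The deposited texts also speak of microarrays and of tissue, while the table and the series type are of sequencing of cultured cells. The labels name no treatment time and do not say which group is the control, or whether a clone or a pool of infected cells was used. All differences are therefore given as in9 minus LV2. Nothing states that the replicates were separate cultures, so p-values measure the spread between these libraries, which may be technical.

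As background, a eukaryotic origin is prepared in G1, when the origin recognition complex, Cdc6 and Cdt1 load the ring-shaped MCM helicase onto DNA. In S phase Cdc45 and the GINS complex join the helicase, and polymerases, the sliding clamp PCNA and its loader copy both strands. Cyclin D and cyclin E, acting with their kinases, free the E2F transcription factors, which raise the genes of replication and nucleotide synthesis. Many of these transcripts peak around the start of S phase and serve as markers of cycling cells.

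The microRNA that the series lowers has 2 mature arms, given here from RefSeq (GRCm38.p6) because its seed decides which transcripts it can pair with. Capitals mark the seed, bases 2 to 8.
mmu-miR-9-5p: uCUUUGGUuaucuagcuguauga
mmu-miR-9-3p: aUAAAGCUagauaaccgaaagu
The longest annotated 3' UTR of each member (GENCODE M21) was searched for letters that pair with the seed of the 5p arm, ACCAAAG, or CCAAAGA, or the 8 bases that join them. Such a match was present in 12 of 41 members (29.3%), against 22.2% of the 10952 tested genes with a 3' UTR. The median 3' UTR was 757 bases long among the members and 1167 among those tested genes. The 8-base match stood in Ccne2, Prim1 and Gins2, and 7-base matches in Ccnd1, Ccne1, Cdc6, Rfc2 (3 matches), Rfc5, Rrm1, Mcm10, Gins3 and Uhrf1. The 3 longest matches and that of Ccnd1, the most abundant member, are given with the match in capitals and its mm10 position.
Ccne2 (chr4:11203808-11203815, plus strand): atgggagaACCAAAGAaattataa
Prim1 (chr10:128029938-128029945, plus strand): tttgtgagACCAAAGAgggtgtca
Gins2 (chr8:120579415-120579422, minus strand): acaaaaaaACCAAAGAaaaccccc
Ccnd1 (chr7:144930120-144930126, minus strand): ccaaaaggCCAAAGActggtggtg
A match is a run of letters and not a measured binding site. The 12 members with a match had a median log2 fold change of -0.08 and the 29 without one of -0.06, on the log2(TPM + 1) scale used throughout.

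Promoters were searched for the letters of the E2F element, TTTCGCGC, TTTGGCGC or TTTCCCGC on either strand, from 250 bases before to 50 bases after the RefSeq start. Of the 32 members with a promoter in the table, 14 held at least 1 match (43.8%), against 4.42% of the 9188 tested genes with a promoter. Separately the elements stood in 7, 6 and 6 members, against 0.827%, 1.197% and 2.58% of tested genes. Mcm5 and Mcm6, a pair of helicase genes described further on, are shown because in each a pair of elements overlap on opposite strands, with a further match in Mcm6. The capitals mark the matched letters, read 5' to 3' on the strand of the gene.
Mcm5 (chr8:75109341-75109382, plus strand): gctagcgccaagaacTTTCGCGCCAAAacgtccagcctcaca
Mcm6 (chr1:128359730-128359830, minus strand): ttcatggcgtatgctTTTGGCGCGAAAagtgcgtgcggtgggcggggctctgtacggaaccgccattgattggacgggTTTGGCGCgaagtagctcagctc
The median log2 fold change was -0.066 in the 14 members with a match and -0.065 in the 18 without.

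Mature miR-9 is not read by messenger RNA libraries, and its precursor genes Mir9-1, Mir9-2 and Mir9-3 were listed at 0 in all 6 libraries, so the labels could not be checked against it. TPM values keep no read counts, so the depth and the counting error are unknown; 20123 to 20538 genes were above 0 in a library. The epithelial markers Epcam, Krt8, Krt18, Krt19 and Cdh1 summed to between 2147 and 2165 TPM in LV2 and between 2041 and 2077 TPM in in9. Taken singly, their log2 fold changes ran from -0.30 to 0.19, with 3 negative and 2 positive. Of 7 leukocyte markers none reached a mean of 1 TPM, and Ptprc was at most 0.12 TPM. Of 5 fibroblast markers only Pdgfra did (4.56 to 8.31 TPM), with Col1a1 at most 0.23 TPM, and their sum was 4.74 to 6.70 TPM in LV2 against 7.95 to 8.43 TPM in in9, whose part in the results was not tested. Of 4 endothelial markers Cdh5 and Tie1 did (1.07 to 1.81 TPM), with Pecam1 at most 0.31 TPM. On the first principal component LV2 replicates 1 to 3 lay at -6.98, -22.0 and -22.2. The in9 replicates 1 to 3 lay at -2.70, 26.1 and 27.8. Replicate 1 of each group thus lay apart from the others of its group, more so in in9. The counts and calls that change without in9 replicate 1 are also given without it. In these bulk libraries a smaller share of cells in S phase and less RNA per cell cannot be told apart.

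The replication genes were expressed at nearly the same level in the LV2 and in9 cells. In limma (moderated test, Benjamini-Hochberg over 13406 tested genes, called at an adjusted p under 0.05) none of the 41 members was called higher and none lower, where 0.821% of all tested genes were called higher and 0.194% lower. The precision was high. On unscaled TPM the 95% interval of the difference lay inside a 1.5-fold change in either direction for 41 of 41 members. The share of all tested genes was 73.5%. Inside a 1.25-fold change it lay for 29 of 41 (70.7%), against 36.5%. Among the 9371 tested genes within the members' range of mean TPM these shares were 86.4% and 48.5%. Interval counts after scaling are not given here. With trimmed-mean scaling the log2 fold change of Tyms moved from -0.38 to -0.44. That of Gins2, which had the widest interval, moved from -0.18 to -0.24. At an unadjusted p under 0.05, 7 members were lower (17.1%) and 2 higher (4.88%), against 5.86% and 13.6% of all tested genes.

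The small differences that there were lay mostly below 0. A negative log2 fold change was found in 29 of 41 members (70.7%), against 36.3% of all tested genes, and the median was -0.06 against 0.06. The in9 values lay wholly below LV2 in 11 members (26.8%, against 8.08% of tested genes) and wholly above in 2 (4.88%, against 17.4%). With trimmed-mean scaling the medians of members and all tested genes were -0.13 and -0.00. With quantile normalization they lay closer together, at -0.08 and -0.00. The members summed to 3729, 3688 and 3705 TPM in LV2 and 3424, 3516 and 3576 TPM in in9, so the lowest unscaled sum was that of in9 replicate 1. The trimmed-mean factors, by which TPM is divided, were 0.984, 1.04 and 1.05 in in9 replicates 1 to 3, so this order holds on unscaled TPM only. Measured against the LV2 mean, the median deviation of the members was -0.10, -0.05 and -0.04 in in9 replicates 1 to 3, while that of all tested genes was 0.00, 0.08 and 0.09. Thus in9 replicate 1 had the lowest member median and, over all genes, lay close to LV2. Its member median lay no farther below that of all tested genes than in in9 replicates 2 and 3. On unscaled TPM in9 replicate 1 was the lowest in9 library for 24 members, the highest for 7 and between the others for 10. Scaling changed the sign of small differences: after trimmed-mean scaling 37 members were negative (with 18 lower at an unadjusted p under 0.05, 43.9% against 10.2% of tested genes), and after quantile normalization 34.

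**Figure D1:**
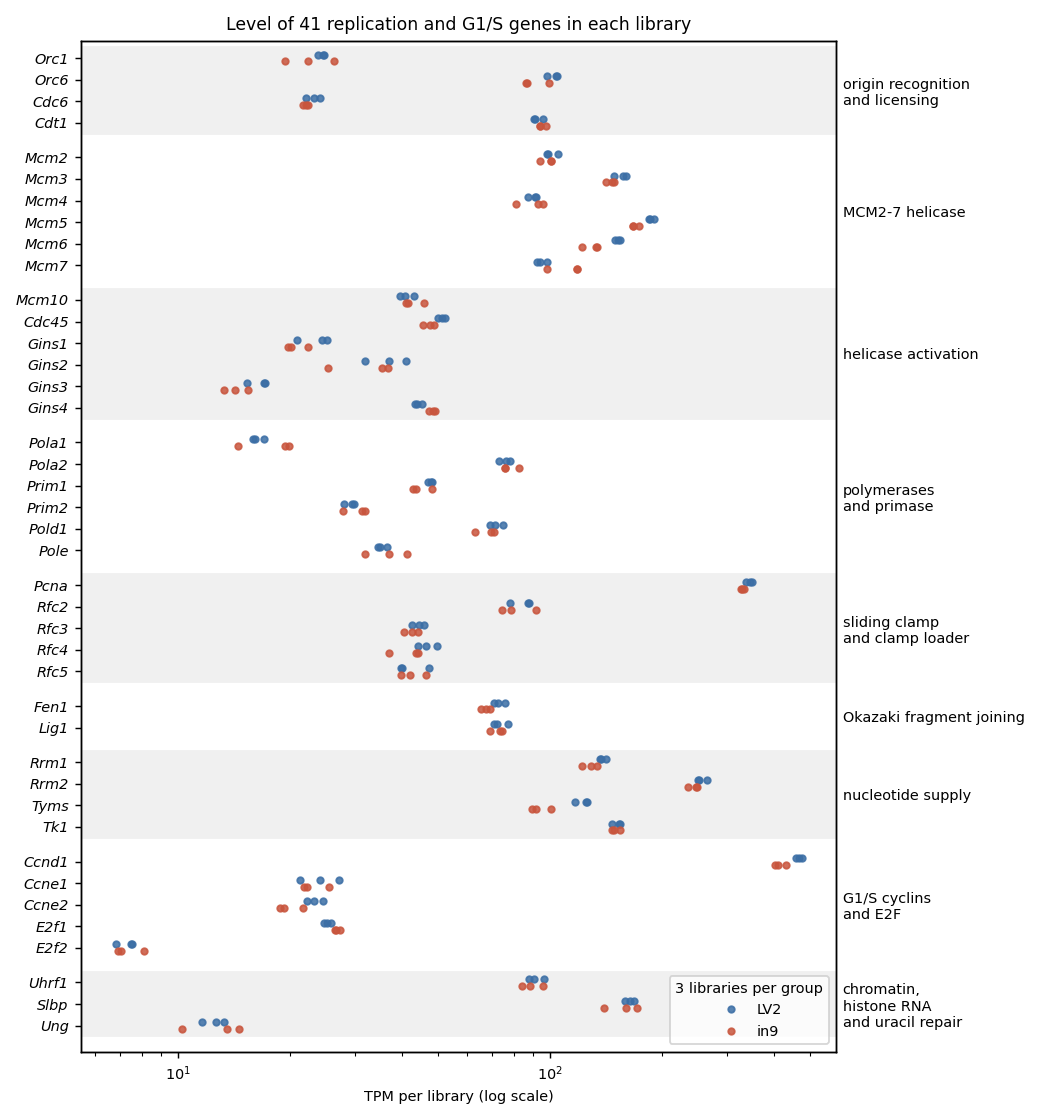
Level of each of the 41 members in TPM (log axis) in the 3 LV2 libraries (blue) and the 3 in9 libraries (red), grouped by role. Mean levels run from E2f2 at 7.31 TPM to Ccnd1 at 442 TPM, and for 28 of the 41 members the groups overlap.

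Levels, which as TPM are per length, spanned 60.5-fold between members. Ccnd1 stood first with a mean of 442 TPM over the 6 libraries, followed by Pcna at 337, Rrm2 at 249.9 and Mcm5 at 178 TPM. The lowest were E2f2 at 7.31, Ung at 12.7, Gins3 at 15.4 and Pola1 at 17.2 TPM. Between the groups, the widest fold change of any member on unscaled TPM was a log2 value of -0.38.

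**Figure D2:**
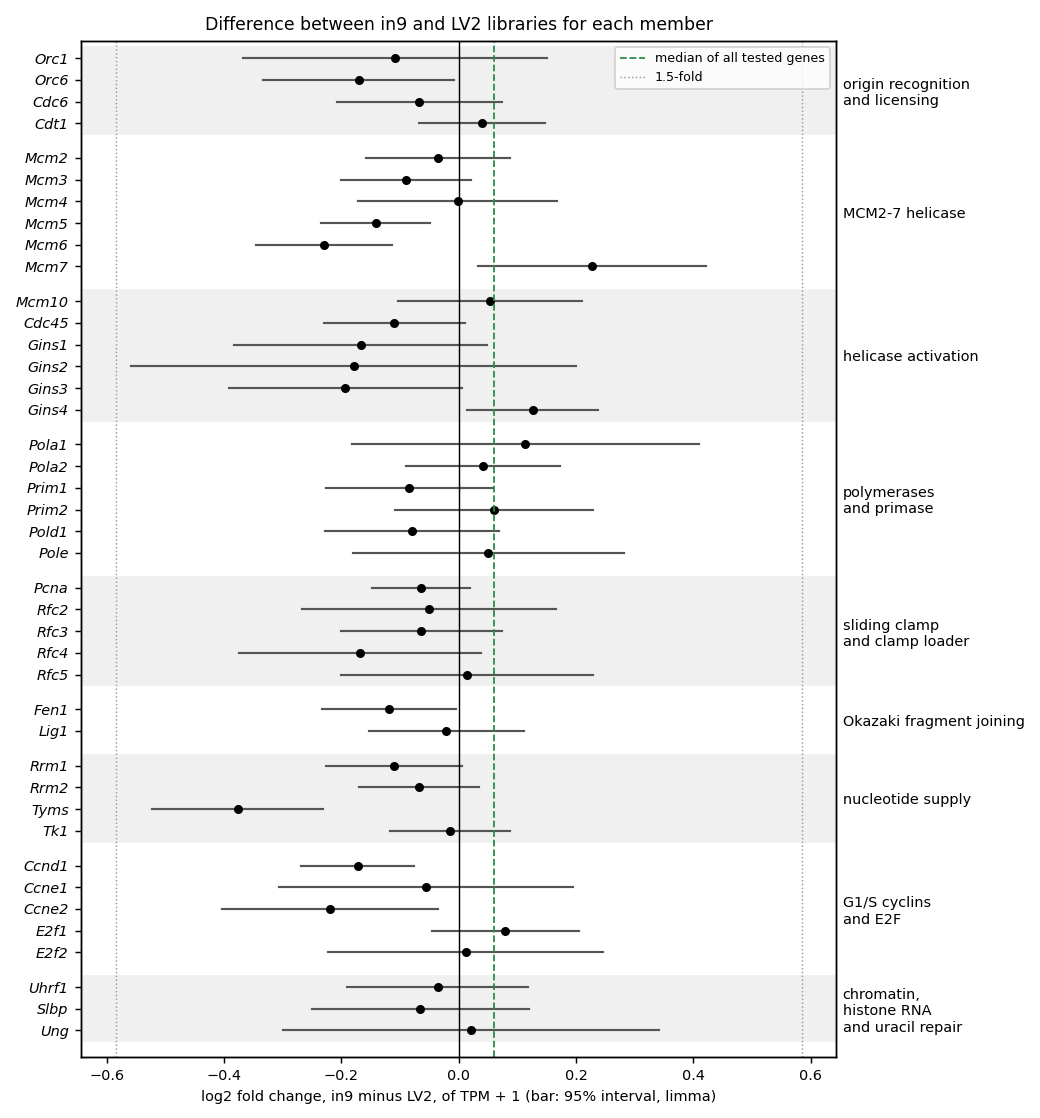
Log2 fold change of each member (in9 minus LV2, of TPM + 1) with its 95% interval from limma, by role; the dashed line is the median of all tested genes at 0.06 and dotted lines mark a 1.5-fold change. All 41 intervals lie between the dotted lines, and the point of Tyms lies farthest to the left.

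Of the 4 genes that recognise and license origins, none was called. Orc6, a subunit of the origin recognition complex, was at 98.6, 104 and 105 TPM in LV2 and 99.9, 87.2 and 86.3 TPM in in9. Library in9 replicate 1 lay within LV2 and the other in9 libraries below it. The log2 fold change was -0.17 ± 0.07 (SE, limma adjusted p = 0.239), and without in9 replicate 1 Orc6 was called lower (-0.24, limma adjusted p = 0.0322). Orc1, the large subunit with ATPase activity, was at 24.7, 23.8 and 24.6 TPM in LV2 and 19.4, 26.3 and 22.4 TPM in in9, with its highest and its lowest values both in in9. Cdc6, the loading ATPase, was at 23.2, 24.1 and 22.2 TPM in LV2 and 21.7, 22.3 and 22.1 TPM in in9, with in9 at the lower end of LV2 and overlapping it. Cdt1, which brings the MCM helicase to the origin, was between 90.8 and 96.0 TPM in the LV2 libraries and between 94.1 and 98.0 TPM in the in9 ones, and its interval ran from 0.955 to 1.11-fold.

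The 6 subunits of the MCM helicase, which form a ring in equal numbers, did not all lie on one side of 0: 5 log2 fold changes were negative and 1 positive, also with trimmed-mean scaling or quantile normalization. Mcm6 was at 154, 149.7 and 153 TPM in LV2 and 122, 133 and 134 TPM in in9. The groups did not overlap, and the log2 fold change was -0.23 ± 0.05 (SE, limma adjusted p = 0.0816, interval 0.786 to 0.924-fold). Mcm5 was at 186, 191 and 184 TPM in LV2 and 167, 167 and 174 TPM in in9, again without overlap (-0.14 ± 0.04, limma adjusted p = 0.133). Mcm7 lay on the other side of 0, at 98.4, 92.2 and 94.3 TPM in LV2 and 98.3, 118 and 118 TPM in in9. Libraries in9 replicates 2 and 3 lay above LV2 and replicate 1 inside its range, and the fold change was 0.23 ± 0.08 (limma adjusted p = 0.201). Mcm3 was between 149 and 160.5 TPM in the LV2 libraries and between 142 and 149 TPM in the in9 ones with an overlap of a fraction of a TPM.

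Mcm2 (between 98.4 and 105 TPM in the LV2 libraries and between 94.0 and 101 TPM in the in9 ones) and Mcm4 (between 87.3 and 91.7 TPM in the LV2 libraries and between 81.3 and 96.2 TPM in the in9 ones) had log2 fold changes of -0.04 and -0.00. In LV2 the order of mean levels was Mcm5, Mcm3, Mcm6, Mcm2, Mcm7 and Mcm4, where Mcm3 and Mcm6, and Mcm2 and Mcm7, overlapped with each other. In in9 Mcm7 stood above Mcm2 on the mean, with overlapping values. The sum of the 6 subunits was 784, 779.5 and 779 TPM in LV2 and 705, 759.5 and 772 TPM in in9, lowest in in9 replicate 1. Without that library Mcm6 was called lower (-0.19, limma adjusted p = 0.0304) and Mcm7 higher (0.32, limma adjusted p = 0.0187). Exons of Mcm7 (chromosome 5, positions 138164583 to 138172422 in mm10) share bases with Cops6 and Ap4m1 on the opposite strand and with the microRNA genes Mir25 and Mir93. Whether reads were counted by strand is not given in the sources used here, so reads of these genes cannot be told apart there. The same holds for Orc1, Orc6, Cdc45, Gins2, Pole, Rfc2, Rfc4, Rfc5, Fen1, Lig1, Tk1, Ccnd1, Ccne2 and Slbp, which share exon bases with a gene on the opposite strand.

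**Figure D3:**
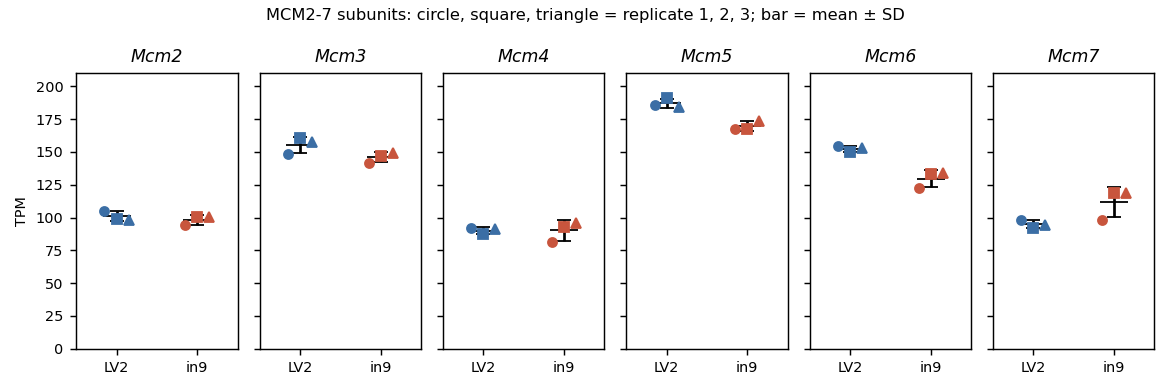
TPM of the 6 MCM helicase subunit genes in LV2 (blue) and in9 (red), with each library as a point and the mean and SD as bars. Mcm5 and Mcm6 lie lower in all 3 in9 libraries, and Mcm7 lies higher in in9 replicates 2 and 3 only.

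Among the 6 genes that turn the loaded helicase on, none was called. Gins4, a subunit of the GINS complex, was at 45.2, 43.4 and 44.1 TPM in LV2 and 49.2, 48.5 and 47.4 TPM in in9. All in9 values lay above all LV2 values, and the log2 fold change was 0.13 ± 0.05 (SE, limma adjusted p = 0.214). Another GINS subunit gene, Gins3, went the other way on the mean, at 17.1, 17.1 and 15.3 TPM in LV2 and 14.2, 15.4 and 13.3 TPM in in9, with in9 replicate 2 just inside LV2 (-0.19 ± 0.08, limma adjusted p = 0.268). Cdc45, which joins GINS and MCM in the active helicase, was at 49.99, 51.3 and 52.4 TPM in LV2 and 47.8, 48.9 and 45.6 TPM in in9, without overlap (-0.11 ± 0.05, limma adjusted p = 0.292). Gins1 (between 20.95 and 25.2 TPM in the LV2 libraries and between 19.7 and 22.4 TPM in the in9 ones) and Gins2 (between 31.8 and 41.01 TPM in the LV2 libraries and between 25.3 and 36.8 TPM in the in9 ones) overlapped between groups, and Gins2 had the widest interval of all members, 0.679 to 1.15-fold. Mcm10, an initiation factor, was between 39.5 and 43.2 TPM in the LV2 libraries and between 40.96 and 45.9 TPM in the in9 ones. The mean LV2 levels of the GINS subunits ran from 44.2 TPM for Gins4 through 36.6 for Gins2 and 23.5 for Gins1 to 16.5 for Gins3.

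No polymerase or primase gene was called, and for none of the 6 were the groups free of overlap. Of these 6 log2 fold changes 4 were positive, but 5 were negative with trimmed-mean scaling and 4 with quantile normalization. The primase subunit gene Prim1 was at 48.2, 47.9 and 47.1 TPM in LV2 and 43.8, 42.9 and 48.3 TPM in in9, with in9 replicate 3 just above LV2. The catalytic subunit of polymerase delta, Pold1, was at 71.3, 68.9 and 74.7 TPM in LV2 and 63.1, 70.7 and 69.6 TPM in in9. The catalytic subunit of polymerase alpha, Pola1, was at 16.1, 17.1 and 15.95 TPM in LV2 and 14.5, 19.9 and 19.5 TPM in in9, so that in9 replicate 1 lay below LV2 and the others above. Its partner Pola2 was at 78.2, 76.3 and 72.9 TPM in LV2 and 75.6, 76.0 and 82.6 TPM in in9. Pole, of polymerase epsilon, was between 34.5 and 36.5 TPM in the LV2 libraries and between 31.9 and 41.4 TPM in the in9 ones, and Prim2 between 27.9 and 29.7 TPM in the LV2 libraries and between 27.8 and 31.9 TPM in the in9 ones. For Pola1 and Pole in9 replicate 1 was the lowest of the 6 libraries and replicates 2 and 3 were the highest.

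Pcna, the sliding clamp that holds polymerases on DNA, was the second most abundant member, at 346, 338 and 349.5 TPM in LV2 and 333, 329 and 326 TPM in in9. All in9 values lay below all LV2 values, but by little (-0.06 ± 0.03, limma adjusted p = 0.358, interval 0.903 to 1.01-fold). Rfc4, of the complex that loads the clamp, was at 44.2, 49.7 and 46.4 TPM in LV2 and 43.8, 36.9 and 44.1 TPM in in9 (-0.17 ± 0.09, limma adjusted p = 0.335). For Rfc4 the groups did not overlap, although narrowly. Rfc3 was at 46.0, 42.6 and 44.5 TPM in LV2 and 42.5, 40.5 and 44.2 TPM in in9, with an overlap. The remaining loader genes overlapped as well. Rfc2 was between 78.2 and 87.9 TPM in the LV2 libraries and between 74.4 and 92.0 TPM in the in9 ones. Rfc5 was between 39.9 and 47.3 TPM in the LV2 libraries and between 39.9 and 46.5 TPM in the in9 ones. Of the enzymes that finish lagging-strand fragments, the flap nuclease gene Fen1 was at 75.7, 72.8 and 70.9 TPM in LV2 and 67.4, 65.4 and 68.9 TPM in in9, without overlap (-0.12 ± 0.05, limma adjusted p = 0.244). The ligase gene Lig1 was at 70.8, 72.3 and 77.3 TPM in LV2 and 69.1, 73.5 and 74.4 TPM in in9, with the groups overlapping.

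The member closest to a call was Tyms, which encodes the enzyme that makes thymidylate. It was at 126, 117 and 125.2 TPM in LV2 and 101, 89.8 and 91.9 TPM in in9, so every in9 library lay below every LV2 library. The mean was 123 ± 5.09 TPM in LV2 and 94.3 ± 5.99 TPM in in9 (SD, n = 3), which on the log2 scale was -0.38 ± 0.06 (SE, limma adjusted p = 0.0520, interval 0.696 to 0.852-fold). The adjusted p ran from 0.0132 to 0.233 over the alternatives. It passed without in9 replicate 1 (-0.43, limma adjusted p = 0.0132) and when only genes with a mean of at least 5 TPM were tested (-0.38, limma adjusted p = 0.0435, where 0.426% of tested genes were called lower). Tyms (chromosome 5, positions 30058202 to 30073617 in mm10) shares no exon bases with another annotated gene, and its 3' UTR held no match to the miR-9-5p seed.

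The other genes of nucleotide supply differed less. Rrm1, the large subunit of ribonucleotide reductase, was at 136, 137 and 142 TPM in LV2 and 129, 134 and 122 TPM in in9 (-0.11 ± 0.05, limma adjusted p = 0.277). The small subunit gene Rrm2 was at 264, 252 and 251 TPM in LV2 and 236, 248 and 249 TPM in in9 (-0.07 ± 0.04, limma adjusted p = 0.420). In both the groups did not overlap, although narrowly for Rrm2. Tk1, which salvages thymidine into the same product as Tyms, was between 147 and 154 TPM in the LV2 libraries and between 147 and 155 TPM in the in9 ones, with a fold change of -0.02 and an interval of 0.921 to 1.06-fold.

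Ccnd1, the gene of cyclin D1, which starts the exit from G1, was at 477, 468 and 460.3 TPM in LV2 and 404, 411 and 432 TPM in in9. All in9 libraries lay below LV2 (-0.17 ± 0.04, limma adjusted p = 0.101, interval 0.830 to 0.949-fold), and without in9 replicate 1 Ccnd1 was called lower (-0.15, limma adjusted p = 0.0486). Ccne2, 1 of the 2 cyclin E genes, was at 22.2, 23.3 and 24.5 TPM in LV2 and 18.8, 21.7 and 19.2 TPM in in9, again without overlap (-0.22 ± 0.08, limma adjusted p = 0.197). The other cyclin E gene, Ccne1, overlapped, between 21.3 and 27.1 TPM in the LV2 libraries and between 21.8 and 25.4 TPM in the in9 ones. E2f1, the activating transcription factor, was at 25.8, 25.2 and 24.8 TPM in LV2 and 26.5, 27.2 and 26.6 TPM in in9, a separation of less than 1 TPM (0.08 ± 0.05, limma adjusted p = 0.439). E2f2, another activator, was between 6.80 and 7.54 TPM in the LV2 libraries and between 6.90 and 8.11 TPM in the in9 ones.

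The last members sit beside the fork. Slbp, which binds the ends of histone messenger RNA, was at 159.6, 168 and 165 TPM in LV2 and 140.2, 160.0 and 172 TPM in in9, and the in9 values spread on either side of LV2. Uhrf1, which helps to copy DNA methylation, was at 96.3, 90.9 and 87.9 TPM in LV2 and 84.1, 88.4 and 96.0 TPM in in9. Ung, the glycosylase that removes uracil from DNA, was at 13.3, 11.6 and 12.6 TPM in LV2 and 13.6, 10.3 and 14.6 TPM in in9. None of these 3 genes differed beyond the spread of its libraries.

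**Figure D4:**
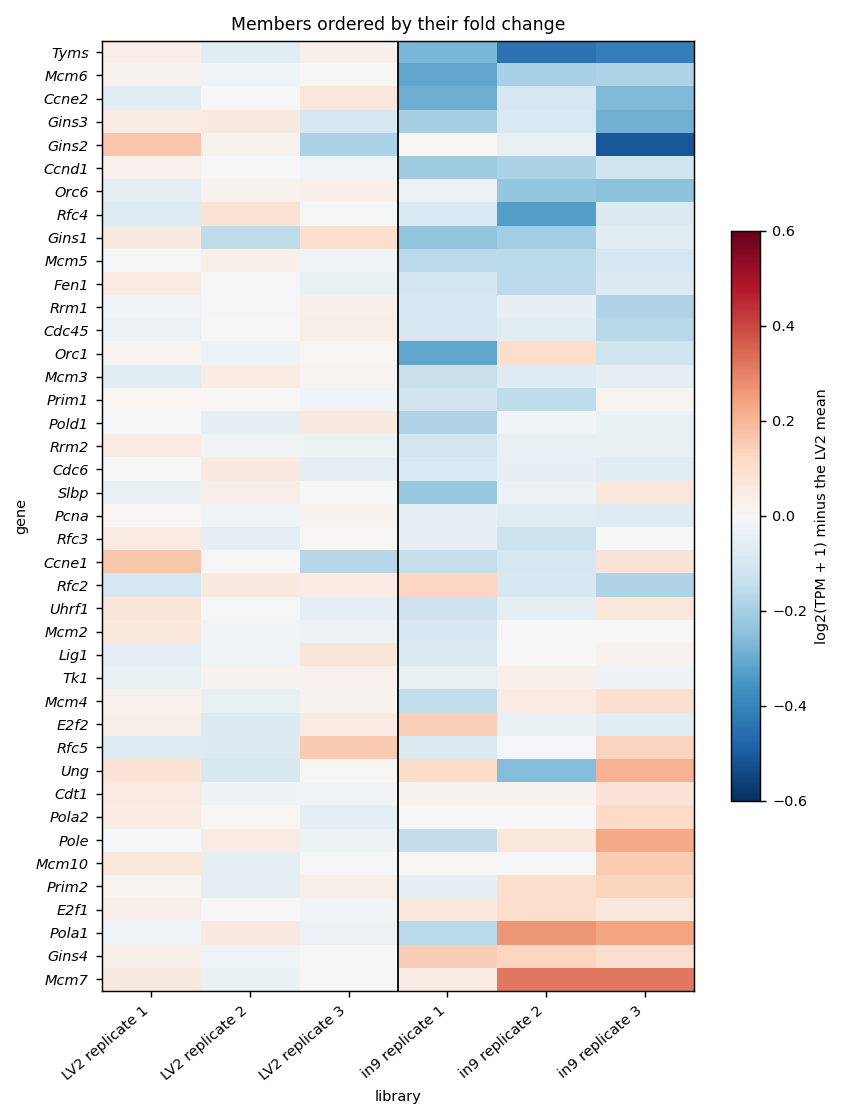
Deviation of log2(TPM + 1) from the LV2 mean for the 41 members (rows, ordered by fold change) in the 6 libraries (columns). The in9 columns are mostly blue, with Tyms and Mcm6 at the top and Gins4 and Mcm7 at the bottom, and in9 replicate 1 differs from the other in9 columns at Mcm7 and Pola1.

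Without in9 replicate 1, 4 of 41 members were called lower (Tyms, Mcm6, Orc6 and Ccnd1) and 1 higher (Mcm7). That is 9.76% and 2.44% of the members, against 3.8% and 7.25% of all tested genes in the same fit. In that fit 27 members were negative (65.9%, against 33.5% of tested genes), and the median was -0.04 against 0.09. Intervals lay inside a 1.5-fold change for 40 members (97.6%, against 68.3%) and inside a 1.25-fold change for 31 (75.6%, against 32.5%). The 2 remaining in9 values lay wholly below LV2 in 12 members (29.3%, against 14.2%) and wholly above in 7 (17.1%, against 36.6%). Fold changes of single members also moved, that of Pola1 to 0.25 (limma adjusted p = 0.0666) and that of Orc1 to -0.01 (limma adjusted p = 0.964). With any other single library left out no member was called. After trimmed-mean scaling Mcm6 was the 1 member called lower (-0.30, limma adjusted p = 0.0439), where 0.246% of tested genes were.

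Other genes of the pathway, listed apart from the members, were mostly at similar unscaled levels in both groups as well. On unscaled TPM intervals lay inside a 1.5-fold change for 40 of 41 fork and licensing genes and 27 of 28 G1/S regulators. They did so for 24 of 24 nucleotide supply genes and 24 of 24 genes of G2 and mitosis. The share was 73.5% of all tested genes, and 86.4% of those within the members' range of mean TPM. The counts at an unadjusted p that follow for these lists stand against 13.6% higher and 5.86% lower among all tested genes. Their median log2 fold changes stand against 0.06 over all tested genes. Of 41 further fork and licensing genes none passed in limma. At an unadjusted p under 0.05, 2 stood higher and 3 stood lower, and the median log2 fold change was -0.01. The smallest p-values there belonged to Rnaseh2b, a subunit of RNase H2 (-0.36 ± 0.07, limma adjusted p = 0.0803), to Pole4 of polymerase epsilon (-0.24 ± 0.07), to Rpa2 of the single-strand binding complex (-0.18 ± 0.06) and to Orc3 (0.19 ± 0.07). Rnaseh2b was at 16.7, 15.6 and 14.9 TPM in LV2 and 12.5, 11.5 and 12.2 TPM in in9, without overlap.

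Of 31 further G1/S regulators 28 were tested and none passed in limma. At an unadjusted p under 0.05, 7 stood higher and 3 stood lower, and the median was 0.02. Tfdp1, the partner with which E2F proteins bind DNA, was at 181, 179 and 166 TPM in LV2 and 129, 144 and 146 TPM in in9 (-0.32 ± 0.06, limma adjusted p = 0.0722). Cdkn2c, an inhibitor of the cyclin D kinases, was at 57.5, 60.0 and 61.3 TPM in LV2 and 69.1, 71.3 and 77.7 TPM in in9 (0.28 ± 0.06, limma adjusted p = 0.0838). Both were without overlap. Skp2, which directs the breakdown of a cyclin kinase inhibitor, had a fold change of 0.17 ± 0.05, and the pocket protein gene Rbl2 of 0.54 ± 0.15 at only between 2.37 and 2.78 TPM in the LV2 libraries and between 3.80 and 5.27 TPM in the in9 ones.

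Of 24 further genes of nucleotide supply none passed in limma. At an unadjusted p under 0.05, 4 stood higher and 5 stood lower, and the median was -0.04. Dut, which removes dUTP and so yields the substrate of Tyms, was at 181, 181 and 184 TPM in LV2 and 167, 149.7 and 142 TPM in in9 (-0.25 ± 0.06, limma adjusted p = 0.111), lowest in in9 replicates 2 and 3. Paics, of purine synthesis, was at 209, 206 and 205 TPM in LV2 and 228, 235 and 231 TPM in in9 (0.16 ± 0.04, limma adjusted p = 0.0947). Samhd1, which degrades deoxynucleotides, was at 57.2, 56.5 and 51.6 TPM in LV2 and 62.5, 73.8 and 68.3 TPM in in9 (0.30 ± 0.08), and Dhodh, of pyrimidine synthesis, at 20.5, 18.6 and 20.6 TPM in LV2 and 22.8, 26.7 and 25.8 TPM in in9 (0.32 ± 0.08). Of 24 genes of G2 and mitosis none passed in limma. At an unadjusted p under 0.05 none was higher and 2 were lower (Aurka, -0.17 ± 0.05, and Birc5, -0.11 ± 0.04), and the median was 0.03. Next in order of p stood Hmmr (0.23 ± 0.10) and Ube2c (-0.12 ± 0.05). After trimmed-mean scaling the medians of these 4 lists were -0.07, -0.04, -0.11 and -0.03, in the order given. That of all tested genes was then -0.00 and that of the members -0.13. Calls in these lists also depended on in9 replicate 1. Without it limma called Orc2 higher and Rnaseh2b, Pole4 and Rpa3 lower among fork genes, Cdkn2c and Cdk6 higher and Tfdp1 lower among G1/S regulators, Paics, Samhd1 and Dhodh higher and Dut, Nme1, Dctpp1 and Impdh2 lower in nucleotide supply, and Hmmr, Bub1 and Bub1b higher among genes of G2 and mitosis. Their limma adjusted p then lay between 0.0142 for Dut and 0.0487 for Pole4. In the same fit 7.25% of all tested genes were called higher and 3.8% lower. Tfdp1 was also called lower after trimmed-mean scaling (-0.39, limma adjusted p = 0.0362), where 0.246% of tested genes were.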

How the data were processed

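The table deposited by the authors gives TPM per gene for 3 LV2 and 3 in9 libraries and their group means, plus gene length. The build was mm10 per the submitters' processing notes. Aligner, quantifier and strand setting: not given in the sources used here. Depth is unknown.

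Libraries were matched by column name to titles. The 13406 genes averaging 1 TPM or more were fitted as log2(TPM + 1) with limma 3.58.1 in R 4.3.3, in9 minus LV2, with an intensity trend and no replicate block. Tests were two-sided, with Benjamini-Hochberg adjustment. The fit was checked on simulated data with known changes of 1.5-fold or more. These are wider than the difference of any member, so the check does not cover the differences described here. Fold changes on this scale understate low genes. Tables used python 3.11.15 with pandas 2.3.3.

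Members, lists and tests were chosen with earlier results of these data known. Per role, library values were given for the 3 members with the smallest p and that with the highest level, and the 4 genes with the smallest p were named per further list. GENCODE M21 matched all 41 members, of which 15 share exon bases with another gene.

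Alternatives were a pseudocount of 0.1, no filter, a minimum of 5 TPM, trimmed-mean scaling (trimming 30% of log ratios and 5% of log levels at each side), quantile normalization, no intensity trend, a replicate block, and leaving out each library.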

Additional observations from a re-analysis of the deposited data

How the results depend on the processing

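Of 533 alternative fold changes of the 41 members, 495 kept their sign and their side of the threshold, 7 kept their sign and passed the threshold, and 31 changed sign. After trimmed-mean scaling the members had 1 lower call, with 1 standing higher and 18 lower by unadjusted p (0.05; all tested genes 9.16% and 10.2%) and a median of -0.13. The signs that changed were those of Cdt1 (-0.0258), Mcm10 (-0.0123), Pola2 (-0.0253), Prim2 (-0.00477), Pole (-0.0148), Rfc5 (-0.0510), E2f2 (-0.0469) and Ung (-0.0415). After quantile normalization there were 1 higher (2.44%) and 11 lower (26.8%) by that p, against 9.34% and 9.17% of all tested genes, with sign changes in Prim2 (-0.00829), Pole (-0.0158), Rfc5 (-0.0369), E2f2 (-0.113) and Ung (-0.0739). A minimum of 5 TPM gave 1 lower member call and 45 lower calls over all genes. No filter gave 24 higher and 6 lower calls over all genes. By unadjusted p 2 members were then higher (4.88%) and 9 lower (22%), against 8.01% and 3.88% of all tested genes. No intensity trend gave 27 higher and 4 lower calls over all genes, with 1 member higher (2.44%) and 5 lower (12.2%) by unadjusted p. Among all tested genes those shares were 13.4% and 4.86%.

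The replicate block gave 1 higher and 1 lower call over all genes, and by unadjusted p 0 members higher and 4 lower (9.76%), against 9.85% and 4.51% of all tested genes. The replicate numbers were not taken as pairs, since the labels state no pairing. Same-numbered libraries had correlations of deviations of -0.10, 0.02 and -0.05, and no in9 library correlated best with the LV2 library of its own number. With so few libraries a group, these correlations cannot decide whether the libraries were paired.

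With 1 library left out, all genes had 6 to 971 higher and 1 to 509 lower calls, the highest both without in9 replicate 1. Members had 0 to 1 higher and 0 to 4 lower calls, 0 to 2 higher and 5 to 8 lower by unadjusted p (all tested genes 8.94% to 22.5% and 3.66% to 8.65%), and a median of -0.08 to -0.04. The ranges that crossed 0 were those of Mcm4 (-0.0499 to 0.0704), Pole (-0.0370 to 0.147), Rfc2 (-0.138 to 0.0136), Rfc5 (-0.0452 to 0.0928), Lig1 (-0.0470 to 0.0159), Ccne1 (-0.141 to 0.0270), E2f2 (-0.0531 to 0.0497), Uhrf1 (-0.0874 to 0.00717), Slbp (-0.131 to 0.0150) and Ung (-0.0751 to 0.160). The cause of these changes was not tested. Without read counts, counting error at low TPM could not be given.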

Other observations

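Ratios between members within a library are unchanged by a single scaling factor per library, though not by quantile normalization, and 3 of them were computed, chosen after the values of their genes were seen. The ratio of Mcm7 to Mcm6 was 0.638, 0.615 and 0.617 in LV2 and 0.802, 0.890 and 0.885 in in9. It lay above LV2 also in in9 replicate 1, whose Mcm7 level alone did not. The ratio of Rrm2 to Tyms was 2.10, 2.16 and 2.003 in LV2 and 2.33, 2.76 and 2.70 in in9, again without overlap between the groups. The ratio of Ccnd1 to Ccne1 was 17.6, 19.4 and 21.6 in LV2 and 18.5, 18.5 and 17.0 in in9, where the groups overlapped. These are descriptions of 3 libraries a group, given without a test, and the sharing of Mcm7 exon bases with other genes applies to the first of them.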
